A study of Rattus norvegicus with 32 samples.

Results

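The comparison described here is of choline within formerly iron-deficient male rats, that is, of the hippocampus of FIDch rats with that of FID rats. All libraries of the male table (batch I) whose labels gave the diet ID or IDch were taken, 4 FID and 4 FIDch, which are 8 of the 32 libraries of the series. Of the 32883 genes in the table, 13945 had enough counts to be tested. The rats were Sprague-Dawley males aged 65 days (P65). The dams of both groups ate an iron-deficient diet from early gestation until the first postnatal week and an iron-sufficient diet afterwards, so the offspring of both groups shared the early iron deficiency and the later repletion. The dams of the FIDch group also received extra choline in the diet during the later part of gestation, while those of the FID group received the standard choline content. The diets were given to dams, so the litter is the unit that was treated. The paper states that its experiments used males of different litters, but it took its RNA-seq data from an earlier study. The labels do not name litters, so it was assumed, and could not be checked, that each rat came from a litter of its own. The other male groups were always iron-sufficient rats without (IS) and with prenatal choline (ISch), again 4 of each. Females of the same 4 groups were sequenced in batch II, and sex and batch cannot be told apart.

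Choline is a precursor of phosphatidylcholine in membranes, of the transmitter acetylcholine, and, through betaine, of the methyl groups that pass through methionine to DNA and histones. Iron is needed for haem and iron-sulfur proteins, including those of the mitochondrial respiratory chain, and for myelination. The hippocampus holds excitatory pyramidal and granule neurons under the control of GABA-releasing interneurons, whose fast signal is carried by GABA-A receptors, chloride channels assembled from subunits of the alpha, beta, gamma and delta families. Ribosomal proteins form, with ribosomal RNA, the particles that translate mRNA. In bulk hippocampal RNA, fewer cells of a type and less RNA per cell cannot be told apart.

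The FID libraries held 7211053 to 9511611 counts and the FIDch libraries 3515806 to 9007294. FIDch replicate 2 was the shallowest of them, and a gene with 0 counts there could still have a level of up to 0.853 CPM. FID replicate 2 differed more from each of the other FID libraries (chi-square per gene of 7.02 to 7.97) than these did from each other (2.63 to 3.38). FIDch replicate 2 differed from FIDch replicates 1 and 3 by 5.23 and 5.58, but from replicate 4 by 2.77. That was the smallest value of its group, close to the 2.79 between FIDch replicates 1 and 3. The measure uses raw counts, so the same difference gives a larger value in deeper libraries. FIDch replicates 2 and 4 were the shallowest of their group. Where a gene's place at the criterion used below turned on these libraries, this is given beside it. Mitochondrially encoded genes took 6.72 to 7.17% of the counts in FID and 5.81 to 6.87% in FIDch, with the lowest share in FIDch replicate 2 (2-sided exact permutation test, p = 0.229). The libraries carried the markers of hippocampal tissue, with Slc17a7 (ENSRNOG00000020650), the vesicular glutamate transporter of its excitatory neurons, at 17668 ± 341 in FID and 18198 ± 990.4 in FIDch (SD, n = 4 each, normalized counts). Levels are given below as normalized counts, which are counts scaled to a common library size of 7712672. Levels are not compared between genes, since gene lengths were not at hand.

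Choline within formerly iron-deficient males was accompanied by many small differences. A gene met the study's criterion when its log2 fold change was over 0.2 in size and its unadjusted p was under 0.05, and 1810 genes did so (13% of those tested). Of these, 801 were higher in FIDch (5.74%) and 1009 were lower (7.24%). The order turned with library sizes alone (921 higher and 880 lower) and when all 4 male groups were fitted together (914 and 878). With Benjamini-Hochberg adjustment over all genes tested, 179 genes had an adjusted p under 0.05 in edgeR's quasi-likelihood test (1.28%). They comprised 61 higher genes (0.437%) and 118 lower genes (0.846%), but higher ones were the more numerous without FID replicate 4 (17 against 14), FIDch replicate 1 (10 against 7) or FIDch replicate 4 (12 against 6). In all but 1 of the 179 the values of the 2 groups did not overlap, which was the case for 1502 of all genes tested (10.8%), 4.78% with FIDch above FID. Below, a gene is said to have risen or fallen when its adjusted p was under 0.05, and to have met the criterion otherwise. The number of adjusted calls was fragile, because every one of the 8 libraries moved it by more than 1.5 times. It was 72, 96, 86 and 31 without FID replicates 1 to 4 and 17, 111, 74 and 18 without FIDch replicates 1 to 4, and 346 with both libraries numbered 2 left out. The number at the criterion stayed between 1295 and 2003 when any one library was left out. All 50 genes with an adjusted p under 0.05 that the rule for naming genes picked out still met the criterion with each library left out, and for 9 of them the adjusted p also stayed under 0.05 in every such fit. Of the risen or fallen genes given with values below, Thrsp, Bcas1 and Fam111a had an adjusted p over 0.05 with both libraries numbered 2 left out. Mt-nd5, Ndufs7, Ndufa8, Mbp, Glul, Gria2 and C1qc, which had one over 0.05, had one under 0.05 in that setting.

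Those 9 genes were Rplp1, Mt-atp8, Cox6b1, Snurf, Hsp90aa1 and 4 entries without a gene name. Rplp1 (ENSRNOG00000013874), which encodes an acidic protein of the large ribosomal subunit's stalk, had 584, 522, 529 and 507 normalized counts in the FID libraries and 947, 859, 865 and 852 in the FIDch libraries. The lowest FIDch library lay well above the highest FID library, and the rise corresponded to a log2 fold change of 0.71 ± 0.06 (SE) with an adjusted p of 0.000685. Mt-atp8 (ENSRNOG00000033299), a mitochondrially encoded subunit of ATP synthase, had 3912, 4064, 3676 and 3690.1 normalized counts in the FID libraries and 5833, 4937, 5832 and 5751 in the FIDch libraries. It rose by 0.54 ± 0.06 on the log2 scale (adjusted p = 0.00541), with FIDch replicate 2 the lowest of its group and still above every FID library. Mt-atp8 had no match by symbol in RefSeq's GRCr8 annotation, so overlap with other genes was not looked up for it. Whether its entry shared reads with an overlapping gene was not tested. Cox6b1 (ENSRNOG00000034161), a nuclear-encoded subunit of cytochrome c oxidase, had 247, 231, 227 and 231 normalized counts in the FID libraries and 374, 379, 377 and 301 in the FIDch libraries, and the groups did not overlap. Its log2 fold change of 0.60 ± 0.09 (SE) had an adjusted p of 0.00787, but the table holds a second entry of the same symbol (ENSRNOG00000024309), with 569.9 ± 63.1 in FID and 655 ± 18.3 in FIDch (SD, n = 4 each), and the counting could have split reads between them. That second entry had a log2 fold change of 0.19 ± 0.08 and did not meet the criterion, but it met it without FID replicate 2, FIDch replicate 2 or both.

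Hsp90aa1 (ENSRNOG00000007219), the inducible cytosolic form of the chaperone HSP90, fell more than any other of the 5 named genes. It had 282, 230.0, 167 and 207 normalized counts in the FID libraries and 114, 63.2, 87.8 and 71.2 in the FIDch libraries. Every FIDch library lay below every FID library, with a log2 fold change of -1.35 ± 0.18 (SE) and an adjusted p of 0.00736. The iron-sufficient rats had 113, 151, 158 and 129.9 in IS and 164, 141, 93.7 and 93.5 in ISch, below the FID range and overlapping the highest FIDch library. Snurf (ENSRNOG00000054391), an imprinted gene that shares its transcript with Snrpn, had 544, 557, 529 and 506 normalized counts in the FID libraries and 395, 307, 326 and 356 in the FIDch libraries, so that all FIDch libraries were below all FID libraries. It fell by 0.62 on the log2 scale (SE 0.08, adjusted p = 0.00736). Its reads cannot be told apart from those of Snrpn, whose gene overlaps it in RefSeq's GRCr8 annotation. Among the entries without a gene name, LOC100360841 (ENSRNOG00000034180) had 114, 99.6, 93.4 and 77.8 normalized counts in the FID libraries and 38.9, 26.2, 35.8 and 37.9 in the FIDch libraries, a log2 fold change of -1.43 ± 0.16 (SE). AABR07067749.1 (ENSRNOG00000032947) had 18.2, 12.1, 14.5 and 15.7 normalized counts in the FID libraries and 0.974, 0, 0 and 2.3 in the FIDch libraries, so it was at or near 0 in every FIDch library.

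**Figure D1:**
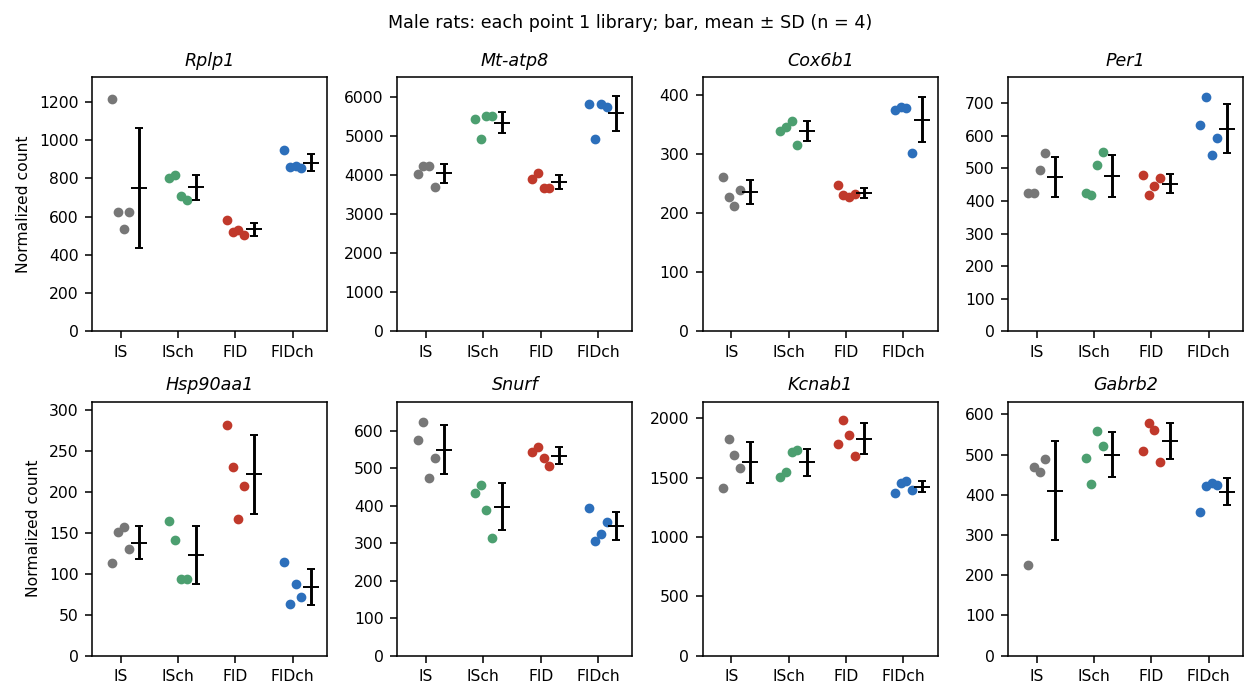
Normalized counts (y axis, from 0) of 8 genes in each of the 16 male libraries, by group (x axis), with 1 point per library and bars for the mean ± SD (n = 4). FIDch lies wholly above FID in Rplp1, Mt-atp8, Cox6b1 and Per1 and wholly below it in Hsp90aa1, Snurf, Kcnab1 and Gabrb2, and ISch differs from IS in the same way in Mt-atp8, Cox6b1 and Snurf.

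Of the 39 gene lists examined, that of ribosomal protein genes held the most risen genes. Of the 68 entries tested, 20 met the criterion with higher levels in FIDch and 3 with lower levels, beside 5.74% and 7.24% of all genes, and 11 rose at an adjusted p under 0.05. Their median log2 fold change was 0.12, beside -0.0003 over all genes tested. The number higher at the criterion was 32 with both libraries numbered 2 left out and 17 to 29 with a single library left out. Among the 11 risen entries were Rplp1, Rpl37a, Rps21, Rpl21, Rps14, Rpl32, Rps28, Rps15, Fau and Rps2.

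For 7 of them, the bases around the start of transcription are shown, because ribosomal protein genes are known to share a run of pyrimidines there, the terminal oligopyrimidine tract through which their translation is controlled. The 20 bases before the start are followed by the 20 bases from it, taken from RefSeq's GRCr8 promoters, and capitals mark the tract found by the search. The windows lie at chr8:71290853-71290892 (minus strand), chr9:81748071-81748110 (plus strand), chr3:187724018-187724057 (plus strand), chr7:15311314-15311353 (minus strand), chr7:10068096-10068135 (minus strand), chr1:212779493-212779532 (plus strand) and chr10:14251828-14251867 (plus strand).
Rplp1: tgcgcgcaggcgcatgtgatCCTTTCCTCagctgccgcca
Rpl37a: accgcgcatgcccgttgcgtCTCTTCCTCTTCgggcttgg
Rps21: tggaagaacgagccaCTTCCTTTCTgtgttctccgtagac
Rps28: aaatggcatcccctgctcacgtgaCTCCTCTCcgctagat
Rps15: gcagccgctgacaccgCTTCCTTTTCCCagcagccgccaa
Fau: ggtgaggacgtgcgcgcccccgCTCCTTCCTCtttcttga
Rps2: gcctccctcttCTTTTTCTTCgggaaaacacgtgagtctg
The search was for a C followed by at least 5 bases that are each C or T, within 10 bases before to 12 bases from the start, on the strand of the gene. Such a run stood in 35 of the 52 ribosomal protein genes with a window (67.3%) and in 15.2% of the 10106 tested genes with one. It stood in 11 of the 16 ribosomal protein genes that met the criterion upward and in 24 of the 36 that did not (68.8% and 66.7%). On the opposite strand it stood in 5.77% of the ribosomal protein genes and 18.1% of all tested genes.

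Rpl37a (ENSRNOG00000023385), a protein of the large subunit, had 612, 581, 519 and 522 normalized counts in the FID libraries and 778, 721, 771 and 758 in the FIDch libraries, and the groups did not overlap (log2 fold change 0.43 ± 0.07, adjusted p = 0.011). Rps21 (ENSRNOG00000060449), of the small subunit, had 344, 358, 283 and 263 normalized counts in the FID libraries and 445, 429, 446 and 433 in the FIDch libraries. Its log2 fold change was 0.48 ± 0.09 and its adjusted p 0.0342. Rps15 (ENSRNOG00000024603), also of the small subunit, had 641, 684, 673 and 557 normalized counts in the FID libraries and 951, 721, 921 and 812 in the FIDch libraries (adjusted p = 0.0457). In both, each FIDch library was above each FID library. Fau (ENSRNOG00000020982), which encodes a ubiquitin-like protein fused to the small-subunit protein eS30, rose by 0.42 ± 0.09 with an adjusted p of 0.0472. Outside the list, Rpl41 (ENSRNOG00000042233), the smallest ribosomal protein, rose by 0.45 ± 0.08 (adjusted p = 0.0216), with 670.3 ± 61.2 in FID and 919 ± 83.7 in FIDch (SD, n = 4 each).

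The summed level of the list overlapped between the groups. Summed over its 68 entries, the level was 45284, 47294, 42447 and 40703 normalized counts in the FID libraries and 50540, 45603, 49105 and 47122 in the FIDch libraries. FIDch replicate 2 lay within the FID range and the other 3 FIDch libraries near or above its top. Rpl21, of the large subunit, has 4 entries in the table, and those tested did not move alike. The sparse entry that rose (ENSRNOG00000032803) had 16.5 ± 1.72 in FID and 34.9 ± 5.96 in FIDch, and an abundant one (ENSRNOG00000000957) had 812 ± 63.1 in FID and 686 ± 57.3 in FIDch (SD, n = 4 each). The abundant entry met the criterion with a lower level in FIDch (log2 fold change -0.26 ± 0.07). Rpl30 (ENSRNOG00000032825) and Rpl17 (ENSRNOG00000018680) were the other 2 lower members, at -0.29 ± 0.11 and -0.46 ± 0.19. Rpl30 lost the criterion without FID replicate 2 or FIDch replicate 3, and Rpl17 without FID replicate 1 or FIDch replicates 1, 2 or 4. Many ribosomal protein genes have processed copies elsewhere in the genome, so single entries are uncertain where the counting could split reads. Counts of ribosomal protein genes took 0.524 to 0.613% of all counts in FID and 0.595 to 0.648% in FIDch (2-sided exact permutation test, p = 0.0857).

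**Figure D2:**
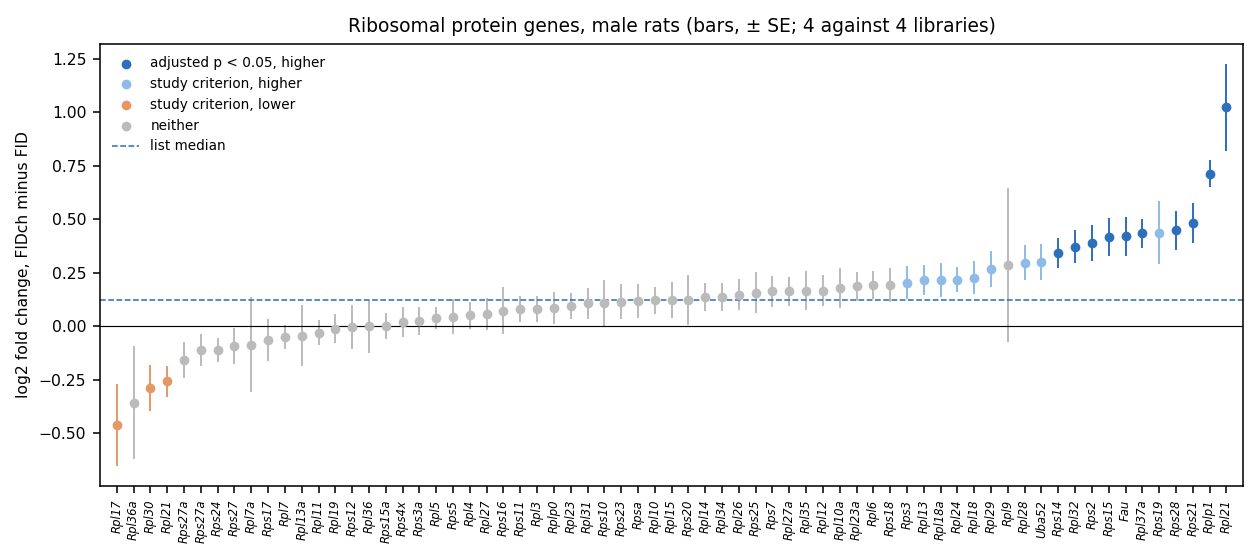
Log2 fold change of FIDch against FID (y axis) for 67 of the 68 tested entries of ribosomal protein genes, in order of size, with bars of ± 1 SE and colours for the calls. Most entries lie above 0, the dashed line marks the list's median of 0.12, and 3 entries lie below 0 at the criterion.

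Energy metabolism genes differed in both directions. Among the 51 nuclear-encoded respiratory chain subunits tested, 7 met the criterion upward and 1 downward, beside 5.74% and 7.24% of all genes, and Cox6b1 was the only one with an adjusted p under 0.05. Ndufs7 (ENSRNOG00000024568), an iron-sulfur subunit of complex I, had 382, 414, 379 and 379 normalized counts in the FID libraries and 518, 462, 472 and 455 in the FIDch libraries (log2 fold change 0.29 ± 0.07, adjusted p = 0.0604). Ndufa8 (ENSRNOG00000005668), an accessory subunit of complex I, had 704, 698, 703 and 667 normalized counts in the FID libraries and 866, 761, 862 and 813 in the FIDch libraries (adjusted p = 0.0604). In both genes the FIDch libraries lay above the FID libraries. Uqcrc2 (ENSRNOG00000036742), a core subunit of complex III, was the one lower member, at -0.25 ± 0.06, and without FID replicate 2 its fold change was under the limit of the criterion. Atp5me (ENSRNOG00000000064), a small subunit of the membrane part of ATP synthase, is not on that list and rose by 0.47 ± 0.07 (adjusted p = 0.0106).

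Of the 13 mitochondrially encoded genes, 4 met the criterion downward, where 7.24% of all genes did, beside the rise of Mt-atp8. Mt-nd3 (ENSRNOG00000033615), a complex I subunit, had 3144, 3273, 2759 and 3002 normalized counts in the FID libraries and 2531, 2075, 2498 and 2549 in the FIDch libraries. It fell, with a log2 fold change of -0.34 ± 0.07 (SE) and an adjusted p of 0.047. Its FIDch values were all below its FID values, and FIDch replicate 2 was the lowest. Mt-nd5 (ENSRNOG00000029971) and Mt-nd6 (ENSRNOG00000029042), of the same complex, were at -0.25 ± 0.06 and -0.29 ± 0.07, with adjusted p of 0.0515 and 0.0704. Mt-co3 (ENSRNOG00000030700), a subunit of cytochrome c oxidase, was at -0.21 ± 0.08, with 48397 normalized counts in FIDch replicate 2 and 64663 to 65461 in the other FIDch libraries. It lost the criterion without FID replicates 2 or 4 or FIDch replicate 2. The other 8 genes did not meet the criterion. The median over the list was -0.09 on the log2 scale.

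Most genes of the GABA-A receptor list were lower in FIDch. Of the 13 genes tested, 7 met the criterion downward and 0 upward, where 7.24% and 5.74% of all genes did. Of these, 3 fell at an adjusted p under 0.05, Gabrb2 among them. The median log2 fold change was -0.25, and 12 of the 13 values were negative. In 9 of the 13 genes, every FIDch library was below every FID library, which held for 5.99% of all genes tested. The number lower at the criterion was between 7 and 9 in every fit that left out 1 library and 8 with both libraries numbered 2 left out.

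Gabrb2 (ENSRNOG00000003680), which encodes a beta subunit, had 509.6, 578, 561 and 482 normalized counts in the FID libraries and 356, 423, 428 and 424 in the FIDch libraries. It fell by 0.40 on the log2 scale (SE 0.08, adjusted p = 0.0392), and FIDch replicate 1 was the lowest library.

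Other members at the criterion were Gabra4 (ENSRNOG00000002336), a partner of the delta subunit outside synapses, Gabra5 (ENSRNOG00000010803), an alpha subunit enriched in the hippocampus, and Gabrg1 (ENSRNOG00000002360). Gabra4 had 1413, 1398, 1331 and 1394 normalized counts in the FID libraries and 1119, 1186, 1258 and 1113 in the FIDch libraries, with a log2 fold change of -0.25 ± 0.06 and an adjusted p of 0.0508. The log2 fold changes were -0.23 ± 0.06 for Gabra5 and -0.33 ± 0.09 for Gabrg1, with adjusted p of 0.0706 and 0.0916. None of these 3 overlapped between groups. Gabra2 (ENSRNOG00000002349), at -0.19 ± 0.05, and Gphn (ENSRNOG00000028366), which encodes the anchoring protein gephyrin, at -0.18 ± 0.06, did not overlap either but were under the fold limit. Gabrd (ENSRNOG00000016385), the delta subunit, was the one member with a positive value, 0.09 ± 0.13, and its groups overlapped. With both libraries numbered 2 left out, Gabra5 was under the fold limit at -0.19, while Gabra2 met the criterion at -0.21 and Gabrd met it upward at 0.27.

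Summed over the 13 genes, the level was 13137, 14199, 13906 and 13823 normalized counts in the FID libraries and 11173, 11033, 12001 and 11614 in the FIDch libraries. The FIDch mean was 16.8% below the FID mean, and no other of the 39 lists had sums that did not overlap. IS libraries summed to 10702, 12967, 12637 and 13064, below every FID library and overlapping FIDch, and ISch libraries to 11989, 11672, 13397 and 13079, overlapping both. Markers of interneurons, which release GABA, summed to 13564 to 14231 in FID and 12806 to 14122 in FIDch. Of these 17 markers, 2 met the criterion, both lower, beside 7.24% of all genes. Gad1 (ENSRNOG00000000007), which encodes the main enzyme of GABA synthesis, was at 2293 ± 243 in FID and 2306 ± 272 in FIDch (SD, n = 4 each). Excitatory neuron markers had 2 lower members of 12 and overlapping sums. Whether a shift in cell composition had a part in the lower subunit levels was not tested.

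**Figure D3:**
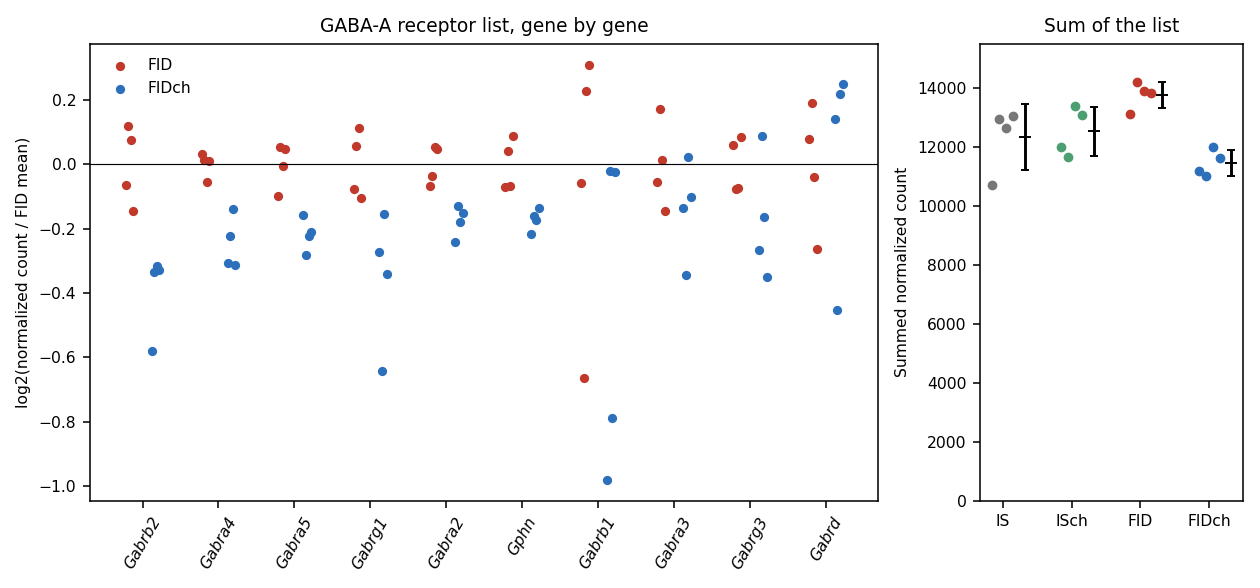
Left, log2 of each library's normalized count over the FID mean (y axis) for 10 of the 13 genes of the GABA-A receptor list (x axis, in order of p), with 1 point per FID or FIDch library. Right, the summed normalized count of all 13 genes in each male library with the mean ± SD (n = 4), where the FIDch libraries (11033 to 12001) all lie below the FID libraries (13137 to 14199).

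Single genes outside the GABA-A list that are known from neurons fell as well. Kcnab1 (ENSRNOG00000056697), an auxiliary subunit of voltage-gated potassium channels, had 1785, 1988, 1859 and 1679.7 normalized counts in the FID libraries and 1374, 1452, 1473 and 1394 in the FIDch libraries, so every FIDch library was below the FID range. Its log2 fold change of -0.37 ± 0.06 (SE) had an adjusted p of 0.0154. It was the only one of 34 potassium channel subunits with an adjusted p under 0.05. Of the 34, 4 met the criterion downward and 1 upward, beside 7.24% and 5.74% of all genes. Kcna4 (ENSRNOG00000004918), a fast-inactivating channel, was among the lower ones at -0.37 ± 0.11. Ppp3r1 (ENSRNOG00000043210), the regulatory subunit of the calcium-dependent phosphatase calcineurin, had 7126, 7586, 6814 and 7443 normalized counts in the FID libraries and 6018, 6259.6, 6187 and 5666 in the FIDch libraries and fell by 0.27 on the log2 scale (adjusted p = 0.0362). It was the one risen or fallen gene of 26 plasticity kinases and phosphatases. Of the 26, 4 met the criterion downward and 0 upward, beside the same shares of all genes.

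Outside the lists, Cdh12 (ENSRNOG00000026392), a cadherin of brain cells, had 201, 206, 227 and 224 normalized counts in the FID libraries and 149, 139, 152 and 144 in the FIDch libraries (log2 fold change -0.56 ± 0.08, adjusted p = 0.0106). Edil3 (ENSRNOG00000033064), a secreted integrin ligand, fell, with 1857 ± 102 in FID and 1437 ± 94.7 in FIDch normalized counts (SD, n = 4 each, adjusted p = 0.0163). Gpr22 (ENSRNOG00000008423), an orphan receptor that lies within Cog5 in RefSeq's annotation, fell by 0.41 on the log2 scale (adjusted p = 0.0177). Necab1 (ENSRNOG00000007256), a calcium-binding protein of subsets of neurons, had 1464, 1738, 1717 and 1652 normalized counts in the FID libraries and 1220.0, 1151, 1413 and 1263 in the FIDch libraries and an adjusted p of 0.0319. In each of these 4 genes the groups did not overlap. In the other direction, Basp1 (ENSRNOG00000046313), a membrane protein of growth cones and presynaptic terminals, rose, with 1180.5, 1204, 1120.3 and 1102 normalized counts in the FID libraries and 1515, 1397, 1505 and 1562 in the FIDch libraries (log2 fold change 0.37 ± 0.06, adjusted p = 0.0109).

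Ionotropic glutamate receptors did not share the direction of the GABA-A subunits. Of 21 AMPA, NMDA and kainate receptor genes tested, 2 met the criterion upward and 2 downward, beside 5.74% and 7.24% of all genes. Their median was 0.02. Grin2d (ENSRNOG00000021063) and Grin2c (ENSRNOG00000003280), NMDA receptor subunits, were at 0.36 ± 0.11 and 0.23 ± 0.08, and Gria2 (ENSRNOG00000054204), the AMPA subunit that limits calcium entry, was at -0.22 ± 0.06. Gria2 lost the criterion without FID replicate 4 or FIDch replicate 1, and Grin2c without FID replicate 2. Of 22 metabotropic glutamate receptor and postsynaptic scaffold genes and of 15 neurotrophin and Trk receptor genes, 0 met the criterion. Among 31 synaptic vesicle and SNARE genes, 1 was higher and 2 were lower at the criterion. Snap25 (ENSRNOG00000006037), a SNARE of the presynaptic membrane, was one of the lower ones at -0.24 ± 0.06, under the fold limit without FID replicate 4.

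Chaperone and stress-responsive genes showed single differences rather than a common one. Of 24 heat shock and chaperone genes, 2 met the criterion upward and 3 downward, beside 5.74% and 7.24% of all genes. Their median was -0.02. Hspa4l (ENSRNOG00000010819), a relative of the HSP110 chaperones, fell beside Hsp90aa1, with 1292, 1358, 1351 and 1355 normalized counts in the FID libraries and 1105, 1098, 1162 and 1125 in the FIDch libraries. The groups did not overlap, and its log2 fold change of -0.26 ± 0.05 (SE) had an adjusted p of 0.0347. Of the 19 stress hormone receptors and glucocorticoid targets tested, 4 met the criterion upward and 1 downward, beside 5.74% and 7.24% of all genes, with a median of 0.11. Per1 (ENSRNOG00000007387), a clock gene that glucocorticoids and neuronal activity induce, had 481, 417, 447 and 469 normalized counts in the FID libraries and 632, 719, 542 and 593 in the FIDch libraries, and it rose by 0.43 ± 0.09 with an adjusted p of 0.0347. The other 3 were Ddit4 (ENSRNOG00000057078), an inhibitor of mTOR, at 0.38 ± 0.12, Pdk4 (ENSRNOG00000009565), a kinase that restrains pyruvate oxidation, at 0.78 ± 0.27, and Sgk1 (ENSRNOG00000011815), a serum- and glucocorticoid-induced kinase. Sgk1 had 448, 462, 436 and 635 normalized counts in the FID libraries and 775, 931, 554 and 524 in the FIDch libraries, which overlapped, and it lost the criterion without FID replicate 3, FIDch replicate 1 or FIDch replicate 2. Fkbp5 (ENSRNOG00000022523), another gene that glucocorticoids induce, was at 621 ± 30.8 in FID and 629 ± 55.3 in FIDch normalized counts (SD, n = 4 each). Of 32 activity-induced genes, 3 were higher, Per1 among them, and 2 lower at the criterion. Npas4 (ENSRNOG00000020009), an activity-dependent transcription factor, was the lower one with the larger difference, at -0.63 ± 0.22 (adjusted p = 0.175).

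Outside the lists, single metabolic genes rose or fell. Acaa2 (ENSRNOG00000013766), a mitochondrial thiolase of fatty acid oxidation, had 87.6, 104, 95.2 and 79.6 normalized counts in the FID libraries and 168, 203, 117 and 139 in the FIDch libraries and rose by 0.72 ± 0.16 (adjusted p = 0.0459). Thrsp (ENSRNOG00000012404), a regulator of fatty acid synthesis, had 144, 128, 122 and 131 normalized counts in the FID libraries and 195, 174, 181 and 163 in the FIDch libraries and an adjusted p of 0.0444. Pank1 (ENSRNOG00000018944), a pantothenate kinase that starts coenzyme A synthesis, had 309.8, 298, 288 and 285 normalized counts in the FID libraries and 194, 220.1, 233 and 225 in the FIDch libraries and fell (adjusted p = 0.0216). In these 3 genes the groups did not overlap.

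Of the genes that handle choline itself, 0 rose or fell. Of 24 genes of choline transport and phosphatidylcholine synthesis, 1 met the criterion upward and 3 downward, beside 5.74% and 7.24% of all genes. Their median was 0.00. Each of the 4 had an adjusted p over 0.05. Sgms2 (ENSRNOG00000011284), a sphingomyelin synthase with few counts, was the higher one at 0.85 ± 0.29, and it lost the criterion without FIDch replicate 1. Gpcpd1 (ENSRNOG00000053201), which splits glycerophosphocholine, was at -0.23 ± 0.07, Cept1 (ENSRNOG00000017723), a choline and ethanolamine phosphotransferase, at -0.28 ± 0.09, and Chpt1 (ENSRNOG00000058271), a choline phosphotransferase, at -0.24 ± 0.10. Cept1 met the criterion with each library left out but lost it after thinning to the smallest library. Gpcpd1 lost it without FID replicate 1 or FID replicate 4 and kept it under the 11 other settings. Chpt1 lost it without FID replicates 1 or 2 or FIDch replicates 1 or 4, and met it under 6 of the 11 other settings. Of 21 genes of choline oxidation and the methionine and folate cycles, Mat2b (ENSRNOG00000003177), the regulatory subunit of methionine adenosyltransferase, was the only one at the criterion, at -0.21 ± 0.06 (adjusted p = 0.121), and it lost it without FID replicate 2 or FIDch replicate 1. Among 17 genes of the cholinergic synapse, Chrm4 (ENSRNOG00000017556), a muscarinic receptor, was higher at 0.29 ± 0.08, and Chrna7 (ENSRNOG00000010853), the alpha-7 nicotinic receptor, and Chrm2 (ENSRNOG00000046972), another muscarinic receptor, were lower at -0.24 ± 0.08 and -0.40 ± 0.15. Chrna7 had 470.1, 556, 567 and 482 normalized counts in the FID libraries and 419, 447, 469 and 429.7 in the FIDch libraries, without overlap. Chrm2 lost the criterion without FID replicate 4 or FIDch replicate 3. It also lost it in DESeq2, after thinning to the smallest library and when all 4 male groups were fitted together.

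Of 23 genes of iron uptake, storage and export, 4 met the criterion downward and 0 upward, beside 7.24% and 5.74% of all genes, with a median of -0.05, and each of the 4 had an adjusted p over 0.05. Tfrc (ENSRNOG00000001766), the transferrin receptor through which cells take up iron, had 1406, 1608, 1388 and 1705 normalized counts in the FID libraries and 1338, 1297, 1253 and 1253 in the FIDch libraries. All FIDch values were below all FID values, with a log2 fold change of -0.26 ± 0.07 (SE) and an adjusted p of 0.0961, and without FID replicate 4 the fold change was just under the limit. Ireb2 (ENSRNOG00000013271), an iron regulatory protein that stabilizes Tfrc mRNA when iron is low, had 410.2, 401, 422 and 394 normalized counts in the FID libraries and 301, 397, 354 and 329.7 in the FIDch libraries, which overlapped between FID replicate 4 and FIDch replicate 2. Its log2 fold change was -0.26 ± 0.08 (adjusted p = 0.13), and it lost the criterion without FIDch replicate 1. Fbxl5 (ENSRNOG00000005261), the iron-sensing ubiquitin ligase adaptor that degrades Ireb2 protein, was at -0.21 ± 0.06, and Cybrd1 (ENSRNOG00000009620), a ferric reductase with few counts, at -0.84 ± 0.31. Fbxl5 lost the criterion without FID replicate 4, FIDch replicate 1 or FIDch replicate 4, and Cybrd1 without FID replicate 4 or FIDch replicate 3. In haem and iron-sulfur cluster synthesis, 1 of 27 genes was higher and 2 were lower at the criterion, beside 5.74% and 7.24% of all genes.

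Some genes of the chromatin lists met the criterion, which 5.74% of all genes met upward and 7.24% downward. Of 22 H3K9 methylation enzymes and readers, Ehmt2 (ENSRNOG00000030630), the H3K9 methyltransferase G9a, was higher at 0.25 ± 0.07 and Cbx5 (ENSRNOG00000036841), the heterochromatin protein that reads the mark, lower at -0.25 ± 0.11. Ehmt2 had 1799, 1452, 1674 and 1601 normalized counts in the FID libraries and 2127, 1970.3, 1825 and 1878 in the FIDch libraries, without overlap, and an adjusted p of 0.107, and it lost the criterion with both libraries numbered 2 left out. Cbx5 lost it when any FID library, FIDch replicate 1 or FIDch replicate 2 was left out. Among 25 other histone lysine methylation enzymes, 4 were higher and 1 lower, and among 18 DNA methylation enzymes and readers 2 were higher and 0 lower, all with an adjusted p over 0.05. Of the 10 tested genes at the centre of the study's networks, 8 did not meet the criterion. Among them were Bdnf, App, Tnks, Htt and Tcf7l2, with log2 fold changes of -0.11 ± 0.09, -0.05 ± 0.05, 0.01 ± 0.10, -0.01 ± 0.15 and 0.26 ± 0.18 in that order. With both libraries numbered 2 left out, Htt met the criterion at -0.24. The other 2, Ireb2 and Bmp3 (ENSRNOG00000002381), a bone morphogenetic protein, met it downward. Bmp3 had 153, 224, 366 and 218 normalized counts in the FID libraries and 129.5, 242, 152 and 142 in the FIDch libraries, which overlapped. It lost the criterion without FID replicate 3 or FIDch replicates 1, 3 or 4, and in DESeq2.

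**Figure D4:**
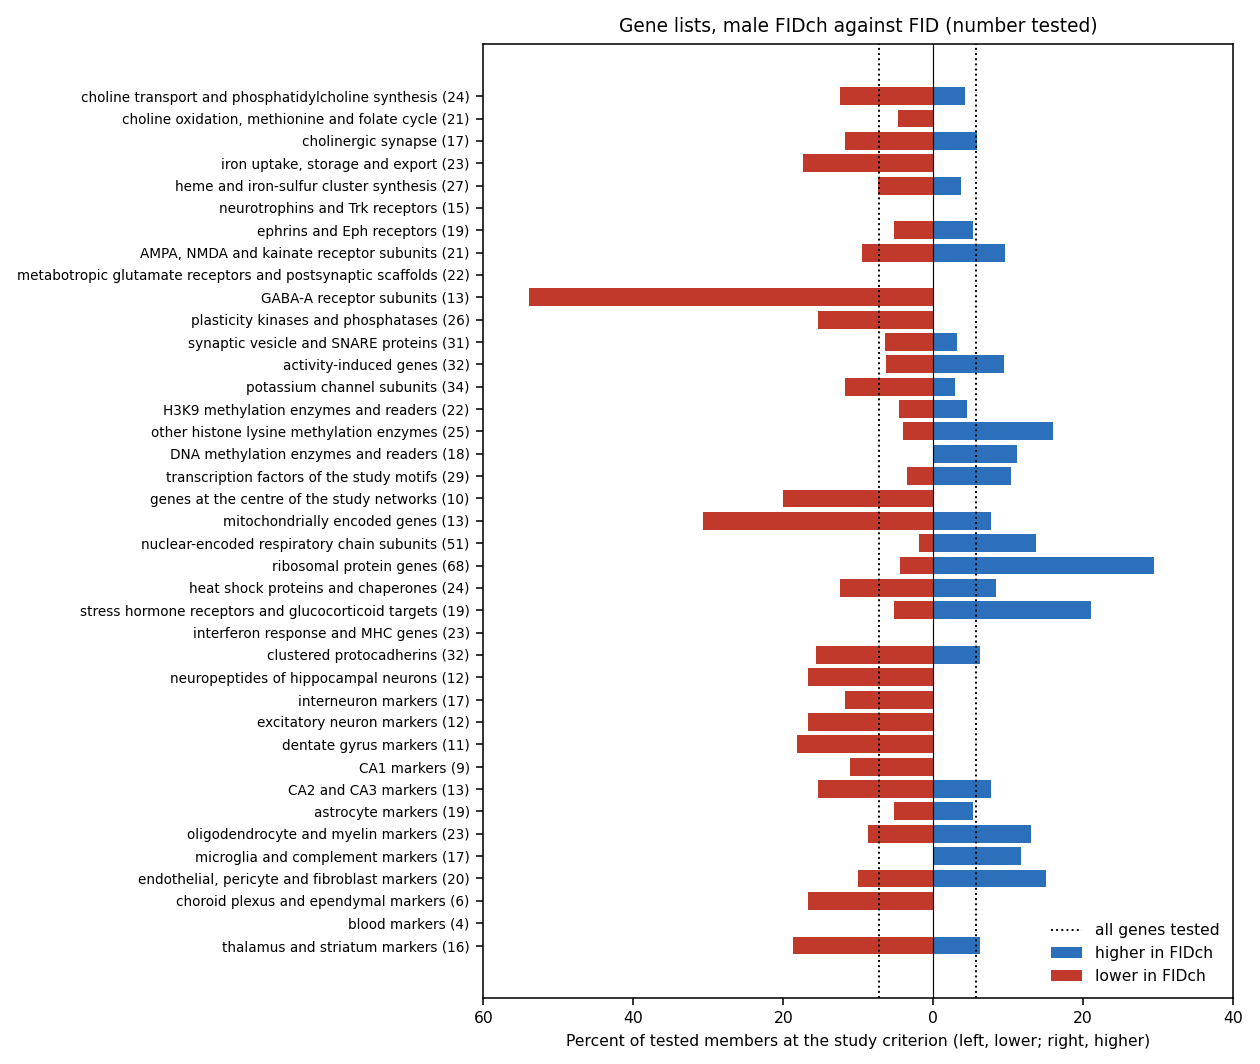
Percent of the tested members of each of the 39 gene lists (y axis, number tested in parentheses) that met the study's criterion in male FIDch against FID, drawn to the left when lower and to the right when higher, with dotted lines at the shares among all genes tested (7.24% lower and 5.74% higher). The GABA-A receptor list reaches farthest to the left (7 of 13) and ribosomal protein genes farthest to the right (20 of 68).

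Glial genes also differed, and their directions were mixed. Of 23 oligodendrocyte and myelin markers, 3 met the criterion upward and 2 downward, beside 5.74% and 7.24% of all genes, with a median of 0.09. Mbp (ENSRNOG00000016516), myelin basic protein, had 23316, 21351, 19681 and 21974 normalized counts in the FID libraries and 29131, 23964, 28315 and 24742 in the FIDch libraries, without overlap, and a log2 fold change of 0.29 ± 0.07 (SE) (adjusted p = 0.0712). Cspg4 (ENSRNOG00000017208), the NG2 proteoglycan of oligodendrocyte precursors and pericytes, was at 0.40 ± 0.09, while Ermn (ENSRNOG00000021472), a cytoskeletal protein of mature oligodendrocytes, was lower at -0.27 ± 0.08. Bcas1 (ENSRNOG00000012906), which marks oligodendrocytes that are forming myelin, rose, with 936 ± 41.2 in FID and 1202 ± 138 in FIDch normalized counts (SD, n = 4 each, adjusted p = 0.0484). Mfge8 (ENSRNOG00000017510), a secreted protein of astrocytes and vessels that aids engulfment, rose with 847, 1055, 866 and 1019 normalized counts in the FID libraries and 1351, 1218, 1163 and 1283 in the FIDch libraries (adjusted p = 0.0378). Of 19 astrocyte markers, Glul (ENSRNOG00000049560), glutamine synthetase, was higher at 0.24 ± 0.06 and Aqp4 (ENSRNOG00000016043), the water channel of astrocyte endfeet, lower at -0.27 ± 0.09. Glul was just under the fold limit without FIDch replicate 3, and Aqp4 under it without FIDch replicate 1. The summed levels of these marker lists overlapped between the groups, at 62435 to 76025 normalized counts in FID and 71102 to 81850 in FIDch for oligodendrocytes and at 73768 to 83408 and 80382 to 87578 for astrocytes.

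Of 17 microglia and complement markers, 2 met the criterion upward and 0 downward, beside 5.74% and 7.24% of all genes. Both were chains of the complement protein C1q. C1qc (ENSRNOG00000012804), at 0.46 ± 0.18, lost the criterion without FID replicates 1 or 4 or FIDch replicates 1 or 4 and after thinning to the smallest library. C1qb (ENSRNOG00000012749), at 0.24 ± 0.11, lost it without FID replicates 1, 3 or 4 or FIDch replicates 1, 2 or 3, in DESeq2 and when all 4 male groups were fitted together. Of 23 interferon response and MHC genes, 0 met it. Blood markers had 0 of 4 at the criterion. Choroid plexus markers differed by library. Ttr (ENSRNOG00000016275), transthyretin, the most abundant choroid plexus transcript, had 45.9, 108, 31.7 and 2698 normalized counts in the FID libraries and 13.6, 28.3, 5.12 and 0 in the FIDch libraries. FID replicate 4 held nearly all of it, and the log2 fold change of -6.25 ± 1.69 (adjusted p = 0.0912) was -2.70 without that library. The summed level of the 6 choroid plexus and ependymal markers was 141 to 2883 normalized counts in FID and 111 to 149.9 in FIDch, and 1 of the 6, Ttr, met the criterion. Ttr lost the criterion in DESeq2. Fam111a (ENSRNOG00000012067), a protease that acts at replication forks, was another gene with uneven libraries, at 128, 292, 70.8 and 286 normalized counts in the FID libraries and 4.87, 0, 61.4 and 46 in the FIDch libraries. The groups did not overlap, and it fell with an adjusted p of 0.0484, but it was uneven in the iron-sufficient rats too, with 4.79, 5.55, 153 and 92.3 in IS and 2.8, 4.58, 186 and 159 in ISch.

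The same prenatal choline was given to iron-sufficient dams, and the ISch and IS males share no library with this comparison. In ISch against IS, 8.06% of genes were at the criterion, and edgeR's adjusted p was under 0.05 for 29 (0.208%). Of the 61 genes that rose in FIDch, 52 were also higher in ISch than in IS (85.2%), beside 49.7% of all genes tested in both, and 25 met the criterion upward there (41%, beside 4.49% of all genes). Of the 118 genes that fell, 116 were tested in ISch against IS, 54 of them were lower there (46.6%, beside 50.3% of all genes) and 18 met the criterion downward (15.5%, beside 3.53%). Mt-atp8, with a log2 fold change of 0.40 ± 0.06 in ISch against IS, and Cox6b1, with 0.52 ± 0.08, rose there as well (adjusted p = 0.0109 and 0.0199). Snurf was lower in every ISch library than in every IS library, with a log2 fold change of -0.47 ± 0.11 and an adjusted p of 0.196. LOC100360841 fell there, with a log2 fold change of -1.74 (SE 0.22, adjusted p = 0.0036). Other genes had close group means there, such as Kcnab1, with 1627 ± 176 in IS and 1627 ± 116 in ISch, and Per1, with 473 ± 60.4 in IS and 477 ± 65.4 in ISch (SD, n = 4 each). Rplp1 was at 749.8 ± 312 in IS and 754 ± 65.8 in ISch (SD, n = 4 each). The spread of Rplp1 in IS came with IS replicate 1, which had 1213 normalized counts. Mitochondrially encoded genes took a smaller share of the counts in ISch (5.95 to 6.65%) than in IS (6.85 to 7.70%), without overlap.

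In the iron-sufficient males, 0 of the 13 GABA-A genes met the criterion downward and 1 upward, with a median of 0.02, where 3.54% and 4.52% of all genes did. Ribosomal protein genes had 5 higher and 8 lower of 68 at the criterion in ISch against IS, with a median of -0.05. The interaction of iron and choline, which tests whether the 2 differences differ, had an adjusted p under 0.05 for 1 of the 14314 genes tested (0.00699%) in edgeR, and for 131 in DESeq2, with 2210 genes at an unadjusted p under 0.05 (15.4%). The edgeR count was 4, 2 and 8 without FID replicate 1, FID replicate 2 and FIDch replicate 2, and 0 without FID replicate 4, FIDch replicates 1, 3 or 4, IS replicates 1, 2 or 4 or ISch replicates 1, 2 or 4. That gene was Sec23ip (ENSRNOG00000020411), a protein of the exit sites of the endoplasmic reticulum, chosen after its values were seen. It had 776, 689, 625 and 714 normalized counts in the FID libraries and 510.2, 579.8, 515 and 546 in the FIDch libraries, and 504, 529.8, 637 and 585 in IS and 781, 766, 653 and 714 in ISch. Its interaction was -0.76 ± 0.12 on the log2 scale with an adjusted p of 0.0412. Of the 13 GABA-A genes, 8 had an unadjusted interaction p under 0.05 and 0 an adjusted one, so a difference between the effects was not shown for any of them.

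The females of batch II, which share no library with the males either, were compared in the same way. In female FIDch against FID, 12.7% of genes were at the criterion, and edgeR's adjusted p was under 0.05 for 334 (2.28%). Leaving out any 1 female library except FIDch replicate 3 moved that number by more than 1.5 times, to between 89 (FID replicate 2) and 775 (FIDch replicate 4). Of the 61 genes that rose in males, 56 were tested in females and 28 of them were higher there (50%, beside 49.9% of all genes). Of the 118 that fell, 107 were tested and 61 were lower (57%, beside 50.1% of all genes), and 6 met the criterion downward (5.61%, beside 7.02%). The difference between the male and the female effect had an adjusted p under 0.05 for 436 of 15143 genes (2.88%), and for 76 of the 179 genes that rose or fell in males. The 179 genes were chosen for their male effect, so that share is a description. The number over all genes lay between 146 (without male FIDch replicate 1) and 697 (without female FIDch replicate 4), and it moved by more than 1.5 times without male FID replicate 4, male FIDch replicate 4 or any female library but FIDch replicate 3. Rplp1, at 0.71 in males and -0.04 in females, Hsp90aa1, at -1.35 and 0.93, Kcnab1, at -0.37 and -0.0015, and Basp1, at 0.37 and -0.37, were among them. Gabrb2 was lower in both, at -0.40 in males and -0.31 in females, and 3 of the 13 GABA-A genes met the criterion downward and 0 upward in females, where 7.07% and 5.59% of all genes did. Of the 13 values in females, 7 were negative and 6 positive, with a median of -0.03, and 1 gene had an adjusted p under 0.05 for the male-minus-female difference. Of 67 ribosomal protein genes tested in females, 55 had a positive value, where 49.9% of all genes did, with a median of 0.07. At the criterion, 6 were higher and 1 lower. Ribosomal protein genes took 1.10% of the counts in female FIDch replicate 4 and 0.906 to 0.929% in the other female FIDch libraries. In female FID they took 0.861 to 0.941%. Whether that 1 library carried the positive values was not tested. The male-minus-female difference had an adjusted p under 0.05 for 6 of the 68 ribosomal protein genes.

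**Figure D5:**
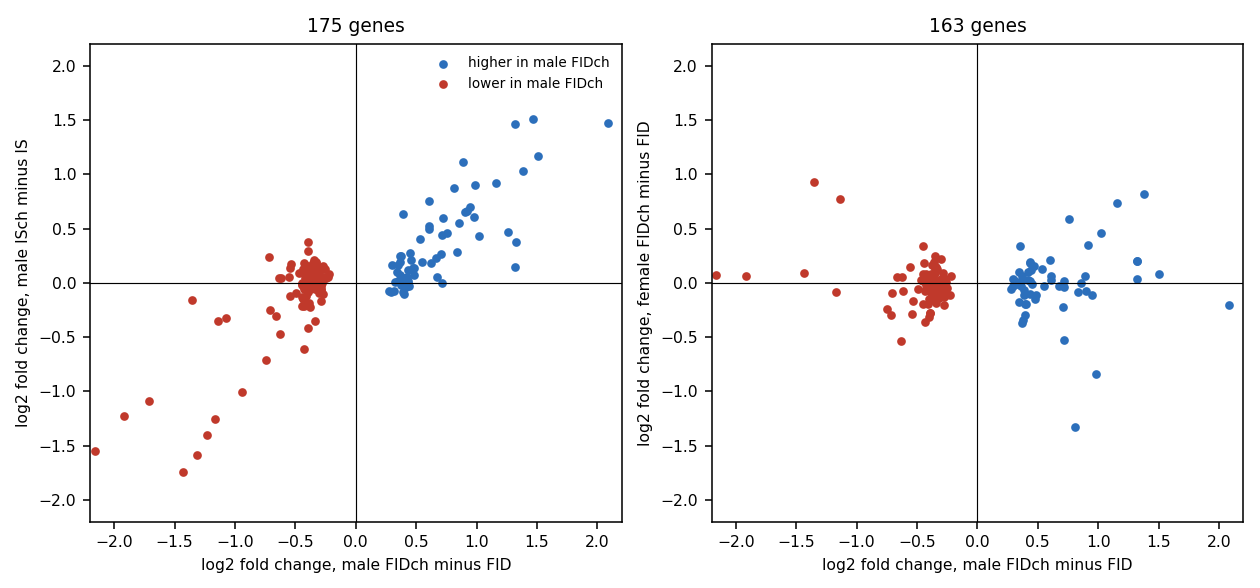
Log2 fold changes of the genes with an adjusted p under 0.05 in male FIDch against FID (x axis) set against those in male ISch against IS (left, 175 genes, 2 lie outside the axes) and in female FIDch against FID (right, 163 genes). On the left 52 of the 61 risen genes lie above 0, and on the right 28 of 56 do.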

How the data were processed

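Hippocampal RNA of 32 rats was sequenced in 2 batches from libraries of a TruSeq RNA kit, which does not mark strand. According to the submitters' notes, FastQC, Trimmomatic, HISAT2, Subread's featureCounts and the Rnor_6.0 build were used. The authors deposited raw counts per gene, with no normalization. The treatment of multi-mapping reads was not given in the sources used here, so antisense, overlapping and duplicated genes are uncertain.

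Groups came from the labels. FIDch and FID males were compared with edgeR 4.0.16 (R 4.3.3, limma 3.58.1), with TMM factors, filterByExpr and the quasi-likelihood test fitted on these 8 libraries alone, and p-values were adjusted by the Benjamini-Hochberg method over all 13945 genes tested. Litters were not named in the labels, and males of 1 group were taken as independent in the fits. The study's criterion was an absolute log2 fold change over 0.2 with an unadjusted p under 0.05. Normalized counts used TMM factors over the 16 male libraries. The interaction and the male-minus-female difference were contrasts in fits of 16 libraries each. Single values were compared with a 2-sided exact permutation test, whose smallest p with 4 against 4 is 0.029. The limit at a count of 0 is 3 counts and covers counting error only.

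Named genes were those with an adjusted p under 0.05 and a symbol (the 15 with the largest change in each direction), the largest non-overlapping changes at a mean of at least 50 (8 each way) and 1000 (5 each way) normalized counts, genes with at most 3 counts in every library of 1 group and at least 20 normalized counts in each of the other, up to 4 members of each list at the criterion, the study's network genes and up to 2 entries without a gene name in each direction. Further members of the described lists, Slc17a7, Gad1, Fkbp5 and Sec23ip were chosen after their values were seen. The comparison, the gene lists and the rule were chosen with earlier results of these data known. RefSeq's GRCr8 tables served for names, overlaps and sequences only, and 142 of 150 named genes matched by symbol. Some genes are not reported here. The scripts were tested on simulated data. Alternatives were other edgeR tests, DESeq2 1.42.0, other size factors and filters, a fit of the 4 male groups, a replicate block, thinning to the smallest library and leaving out libraries.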

Additional observations from a re-analysis of the deposited data

Results flagged for a closer look

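In the genes described, 16 of 176 groups of 4 libraries had one library so far from the other 3 that the gap passed Dixon's 95% limit, where chance alone gives about 1 in 20. FIDch replicate 2, the shallowest library, was the lowest of its group in Mt-atp8 (4937 normalized counts), Mt-nd3 (2075), Mt-nd6 (8234), Mt-co3 (48397) and Rpl41 (793). FIDch replicate 1 was the highest in Rplp1 (947) and the lowest in Gabrb2 (356). FIDch replicate 3 was the highest in Edil3 (1578) and the lowest in Grin2d (112), and FIDch replicate 4 was the lowest in Cox6b1 (301). FID replicate 4 was the highest in Ttr (2698) and Sgk1 (635) and the lowest in Ndufa8 (667). FID replicate 2 was the highest in Ndufs7 (414), FID replicate 1 the lowest in Hspa4l (1292) and FID replicate 3 the lowest in Ermn (636).

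The effect of choline differed between the male and the female batch at an adjusted p under 0.05 in edgeR's contrast for 20 of the genes described, and sex and batch cannot be told apart in it. Male minus female differences of the log2 fold change were positive for Acaa2 (1.27), Rplp1 (0.77), Basp1 (0.76), Mfge8 (0.71), Grin2d (0.66), Cspg4 (0.63), Rps21 (0.61), Chrm4 (0.52), Rpl41 (0.48), Rpl37a (0.44), Ehmt2 (0.41) and Ndufs7 (0.40). They were negative for Hsp90aa1 (-2.26), LOC100360841 (-1.51), Cdh12 (-0.68), Aqp4 (-0.55), Tfrc (-0.41), Gabra4 (-0.36), Kcnab1 (-0.35) and Sec23ip (-0.32). Sec23ip was also the gene whose choline effect differed between formerly iron-deficient and iron-sufficient males, by -0.76 on the log2 scale.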

How the results depend on the processing

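Of the 142 named genes at the criterion, 91 met it with each of the 8 libraries left out and 72 of these also under the 11 other settings, and 0 of them reversed. Losses under the other settings are not given beside every gene above. Among others, Ndufs7, Kcna4, Grin2d and Chrm4 lost the criterion after thinning to the smallest library. The 179 adjusted calls in males numbered 423 with edgeR's likelihood ratio test, 391 with its exact test, 280 with DESeq2, 22 after thinning to the smallest library and 346 with both libraries numbered 2 left out, a setting chosen after seeing the data. They numbered 17 to 111 with 1 library left out. Deviations of same-numbered FID and FIDch libraries correlated at -0.02, -0.17, -0.10 and 0.07, and those of differently numbered ones at -0.16 to 0.26. The labels do not call the same-numbered libraries pairs, and correlations this small and mixed cannot decide whether they were. With the replicate number as a block, 4 genes had an adjusted p under 0.05, and 728 were higher and 883 lower at the criterion. The ribosomal protein genes higher at the criterion numbered 32 with both libraries numbered 2 left out. The interaction of iron and choline gave 131 genes with DESeq2, 3 with all genes that had a count, 0 with the replicate block and 0 to 8 with 1 library left out. The male-minus-female difference gave 774 with DESeq2, 213 with the replicate block and 146 to 697 with 1 library left out. The females gave 816 with DESeq2, 197 with the replicate block and 89 to 775 with 1 library left out. Higher genes made up 44.3% of those at the criterion, 51.1% when only library sizes were used and 51% when all 4 male groups were fitted together. Genes that were not called changed sign. Tnks was at -0.13 without both libraries numbered 2 and ranged from -0.0701 to 0.0870 with 1 left out. Htt was at 0.0067 with DESeq2, 0.0043 with library sizes alone, 0.10 after thinning and -0.14 to 0.0972 with 1 left out. The cause of these shifts was not tested. Depth limits sparse genes most in FIDch replicate 2.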
